A study of Mus musculus with 12 samples.

Results

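Veins carrying an arteriovenous fistula (AVF) were compared with sham-operated veins over the whole transcriptome. All 12 samples of the series entered the comparison, 6 AVF and 6 sham, chosen by the operation in the sample labels and not by any measured value. Each sample was the inferior vena cava (IVC) of 1 wild-type C57BL/6J mouse, bought at 10 weeks of age, with 3 males and 3 females per operation. In the AVF mice the infrarenal aorta was joined to the IVC through a needle puncture, and in the sham mice the vessels were exposed and clamped in the same way but not punctured. All mice, sham included, had the laparotomy, isoflurane anaesthesia and buprenorphine, and veins were taken 7 days later. RNA came from pieces of whole vein, with any tissue that stayed attached to them.

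A vein joined to an artery meets a higher pressure, a faster flow and oxygenated blood. Its wall thickens over the following weeks: smooth muscle cells, fibroblasts and endothelial cells divide, collagen and elastic fibres are laid down, and leukocytes enter the wall. Growth factors of the TGF-beta family drive matrix synthesis in fibroblasts, enzymes of the lysyl oxidase family tie elastin and collagen into fibres, and the ER and Golgi fold and ship the proteins that make them.

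Poly(A) RNA was measured by sequencing, in expected counts per gene, 15177854 to 22717370 per sample after rounding, and values are given as normalized CPM, the counts scaled to the normalized size of each library. For each gene the lowest, median and highest of the 6 values of a group are given in that order. A value equal to 3 counts was 0.127 to 0.324 normalized CPM, a limit that covers counting error only. The share of ribosomal RNA genes was 46% in AVF female 1 and 2.39% to 12.6% elsewhere. The identity of the tissue was checked on markers: Acta2, the smooth muscle actin, was at 923 to 1718 normalized CPM in the sham veins, and Pecam1, an endothelial adhesion molecule, at 590 to 1091. 2 AVF samples stood apart from the rest: the 6 hepatocyte markers summed to 2736 normalized CPM in AVF male 2 and 8330 in AVF female 2, and to 1.15 to 16 in the other 10 samples. Other tissues appeared in single sham samples. Skeletal muscle markers (Myh4 and Ckm) summed to 713 in sham female 3, and cardiac markers (Myh6 and Nppa) to 452 in sham female 1. Brown fat markers (Ucp1, Elovl3 and Cidea) summed to 66 to 1300 in the sham veins and 7.42 to 165 in the AVF. The part of these tissues in each result was not tested. Counts that follow are therefore also given without AVF male 2 and AVF female 2 where they move by more than 1.5 times.

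Over the 15912 genes tested, those above 1 CPM in 2 or more samples, 1373 genes rose in AVF (8.63%) and 817 fell (5.13%) at an adjusted p under 0.05 by edgeR's quasi-likelihood test, and these shares are the background for every count of list members that follows. Genes with a change of at least 2-fold as well, counted as differentially expressed genes (DEG), made up 3.37% of the tested genes in the higher direction and 1.4% in the lower. Of these DEG, 536 higher and 223 lower, 333 had AVF and sham values that did not overlap. Lack of overlap was also a condition for naming the 15 low-p DEG in each direction, so it is not a separate result for those genes. Without the 2 samples with hepatocyte markers, 911 genes rose and 319 fell, and without sham female 2 alone 915 rose and 415 fell. The changes were moderate: the median fold was 1.74 among the genes that rose and 1.65 among those that fell, and the 95% interval of the change lay within 2-fold either way for 11227 genes (70.6%). The median log2 fold change of all tested genes was -0.01. Protein-coding genes supplied 1348 of the genes that rose, and long noncoding RNAs 14 of those that rose and 29 of those that fell, of 654 tested. Transcripts of the matrix lists and the collagens together took 3.37% to 5.75% of the normalized counts of the sham veins and 7.27% to 10.9% of those of the AVF, so that the groups did not overlap.

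**Figure D1:**
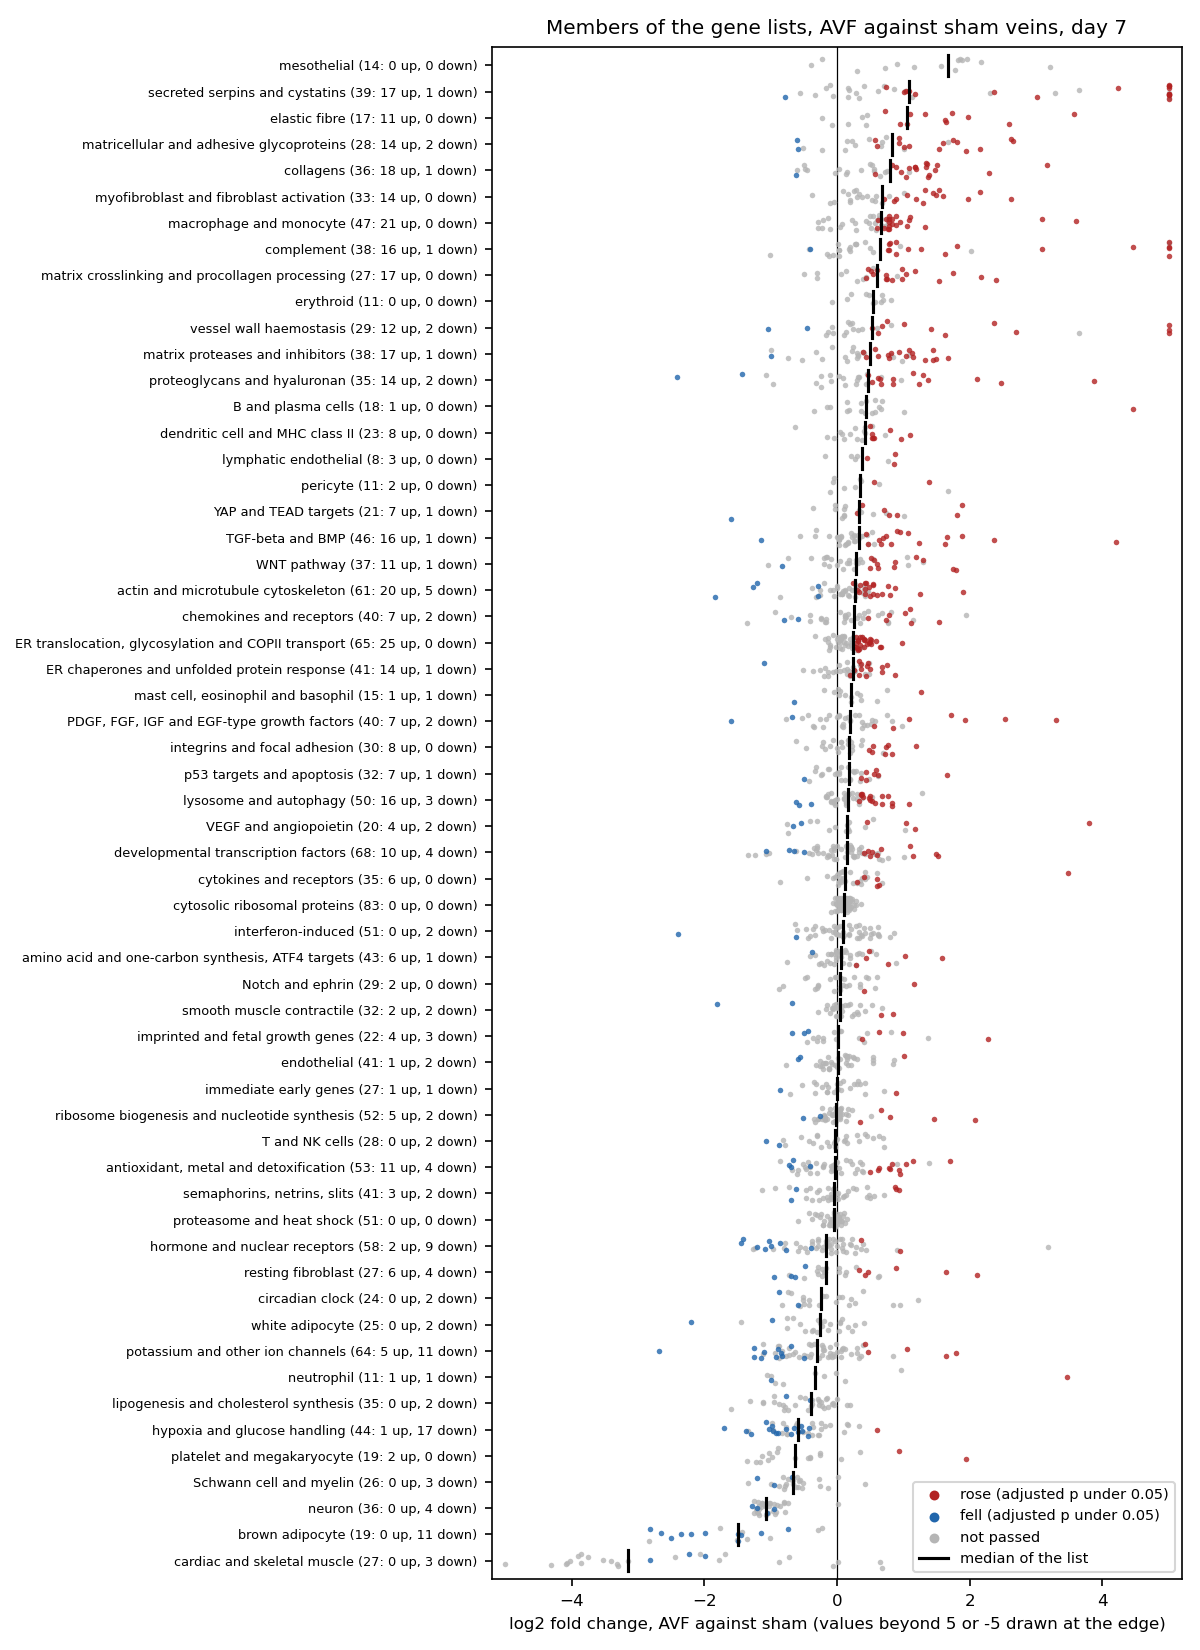
Log2 fold change of AVF against sham (x axis) for the tested members of the gene lists, ordered by their median (black bar); each point is 1 gene, red where it rose and blue where it fell at an adjusted p under 0.05, grey otherwise, and the hepatocyte list is left out. Matrix, fibroblast and macrophage lists lie to the right of 0, brown fat, neuron and muscle lists to the left, and the endothelial and contractile lists around it.

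After the hepatocyte list, the largest share of risers among the 59 lists was in the elastic fibre, a core of elastin on a scaffold of fibrillin microfibrils. Of the 17 tested members, 11 rose and 0 fell, with a median log2 fold change of 1.06, against -0.01 for all tested genes, and the counts were the same without the 2 samples with hepatocyte markers. Mfap4, a microfibril-associated glycoprotein that binds elastin, was at 65.3, 94 and 118 normalized CPM in the sham veins and at 225, 297 and 334 in the AVF. The groups did not overlap, a condition of its choice, and the log2 fold change was 1.63 (standard error 0.14, adjusted p = 6.4e-05). Mfap5, another microfibril protein, was at 63.8, 76.5 and 108 in sham and 182, 256 and 329 in AVF, again with no overlap. Fbn2, the fibrillin typical of developing tissue, had the largest change on the list after elastin itself, 2.59 on the log2 scale (standard error 0.31, adjusted p = 0.00039). The remaining 6 members did not pass. The fibulin Fbln1 was at 118, 136 and 201 in sham and 99.8, 145 and 193 in AVF, and Ltbp4, which carries latent TGF-beta to the fibre, differed by 0.16 on the log2 scale (standard error 0.15).

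Enzymes that modify and join matrix proteins rose with them, 17 of 27 members against none that fell (median log2 fold change 0.60). Loxl1, a lysyl oxidase needed for elastic fibre upkeep, was at 36.2, 43.2 and 56.6 normalized CPM in sham and 113, 141 and 203 in AVF. Every AVF value was more than any sham value, a condition of its choice, and the log2 fold change was 1.75 (standard error 0.16, adjusted p = 8.1e-05). Its relatives Lox and Loxl2 had log2 fold changes of 2.17 and 1.54. Plod3, a lysyl hydroxylase and glycosyltransferase of procollagen, rose by little but evenly, from 37.1, 38.2 and 42.7 to 49.2, 55.4 and 64.3 (log2 fold change 0.52, standard error 0.07, adjusted p = 0.0012). Plod2, which prepares collagen telopeptides for crosslinks, was variable in both groups, at 32, 76 and 337 in sham and 119, 208 and 324 in AVF, and did not pass (adjusted p = 0.24). Tgm2, the transglutaminase, was at a log2 fold change of -0.49 and did not pass (adjusted p = 0.063).

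Among matricellular and adhesive glycoproteins, 14 of 28 members rose and 2 fell. Fibronectin (Fn1), the provisional scaffold on which other matrix is assembled, was at 715, 934 and 1215 in sham and 2182, 2961 and 5178 in AVF, with no overlap (log2 fold change 1.75, standard error 0.21, adjusted p = 0.00036). Periostin (Postn), made by activated fibroblasts, had a log2 fold change of 1.60, and Ccn4, a secreted protein downstream of WNT, one of 2.16. Sparc and its relative Sparcl1 moved in opposite directions: the log2 fold change was 1.01 (standard error 0.18) for Sparc, a collagen-binding protein, and -0.58 for Sparcl1 (standard error 0.13, adjusted p = 0.013). Tgfbi also fell, from 301, 408 and 528 to 193, 263 and 332. Proteoglycans followed the same pattern in part, with 14 of 35 members up and 2 down (12 and 0 without the 2 samples with hepatocyte markers). Lumican (Lum), versican (Vcan) and asporin (Aspn) rose, lumican from 266, 384 and 462 to 815, 912 and 1086 normalized CPM. Decorin (Dcn), the small proteoglycan that trims collagen fibrils, was at 1992, 2304 and 3897 in sham and 2722, 2970 and 3215 in AVF, a log2 fold change of 0.12 whose 95% interval ran from -0.24 to 0.48. Osteoglycin (Ogn) differed by -0.11 on the log2 scale (standard error 0.11). The hyaluronan synthases split: Has1 rose (log2 fold change 2.11) and Has3 fell (-1.44), which did not pass without those samples (adjusted p = 0.079).

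Matrix proteases and their inhibitors also rose, 17 of 38 members against 1 that fell. Adamts12, a secreted protease of cartilage matrix proteins, was at 71.2, 81.9 and 133 in sham and 203, 266 and 299 in AVF (log2 fold change 1.49, standard error 0.16, adjusted p = 0.00028). Mmp14, the membrane-bound collagenase that activates gelatinase A, had a log2 fold change of 1.33, and Mmp2, gelatinase A itself, one of 0.77. The member that fell was Mmp9, gelatinase B of neutrophils and macrophages, from 10.4, 12 and 15.7 to 3.78, 5.03 and 12.2, and 1 AVF value lay within the sham range (adjusted p = 0.023, and 0.076 without the 2 samples with hepatocyte markers). The tissue inhibitor Timp1 rose (1.45), and Timp2 and Timp3 had log2 fold changes of 0.12 and 0.22, and neither passed. Of the integrins and focal adhesion genes, 8 of 30 rose and 0 fell. They included the fibronectin receptor subunits Itga5 (log2 fold change 0.73) and Itgb1 (0.53), Itgb5 (0.76), and Itga4 (1.19), an integrin of leukocytes and mesenchymal cells that binds fibronectin and VCAM1.

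Ligands and modulators of TGF-beta and BMP signalling rose in 16 of 46 cases, and 1 fell. Tgfb2 was at 25.4, 35.5 and 41.5 normalized CPM in sham and 86.5, 122 and 177 in AVF (log2 fold change 1.89, standard error 0.18, adjusted p = 0.00013). The lowest AVF value was above the highest sham value, as its choice among the low-p DEG required. Gdf6, a BMP-type ligand of skeletal and vascular development, was close to undetectable in sham, at 0.194, 0.379 and 0.523, and at 1.95, 5.26 and 15.7 in AVF. This was the largest log2 fold change of the list, 4.21 (standard error 0.49, adjusted p = 0.00033). Fstl1, a secreted BMP antagonist, and Skil, a repressor of SMAD proteins, had log2 fold changes of 1.66 and 0.74. Smad7, the inhibitory SMAD that TGF-beta itself induces, was at 12, 14 and 20.1 in sham and 24.2, 31.2 and 35 in AVF. Noggin (Nog), another BMP antagonist, fell from 3.15, 4.41 and 10.4 to 1.56, 2.43 and 3.24 (adjusted p = 0.026, and 0.083 without the 2 samples with hepatocyte markers). The receptor Bmpr2 differed by 0.06 on the log2 scale (standard error 0.11).

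Adamtsl2, a microfibril-binding regulator of TGF-beta, rose in both sexes from different starting levels. It was at 1.81 to 1.85 in the 3 sham males and at 4.08 to 4.56 in the 3 sham females, against 20.3 to 22.4 and 16.1 to 25.5 in the AVF of each sex. The log2 fold change was 3.52 in males and 2.24 in females, a difference with a p of 0.00019 and an adjusted p of 0.93 over all genes, so that it did not pass the test of an unequal response of the sexes.

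Within the growth factor list of the PDGF, FGF, IGF and EGF families, 7 of 40 members rose and 2 fell (5 and 1 without the 2 samples with hepatocyte markers), and the IGF axis held several of them. Igf1, the main IGF ligand of adult tissues, was at 122, 236 and 287 in sham and 529, 741 and 855 in AVF (log2 fold change 1.71, standard error 0.20, adjusted p = 0.00031). The binding proteins, which hold IGF in the tissue, moved in different directions: Igfbp2 and Igfbp7 had log2 fold changes of 3.31 and 0.84, and Igfbp3 fell from 92.7, 128 and 270 to 34.1, 49 and 81.1 (log2 fold change -1.60, standard error 0.29, adjusted p = 0.0047). Igfbp3 values of AVF and sham did not overlap, and the log2 fold change was -2.34 in males and -0.81 in females, a difference with an unadjusted p of 0.0038 that did not pass (adjusted p = 0.93). The fetal ligand Igf2 fell (-0.68), though not without those samples (adjusted p = 0.059), while Grb10, an adaptor that dampens insulin and IGF receptor signals, rose from 107, 137 and 157 to 219, 275 and 318 (log2 fold change 0.99, standard error 0.11, adjusted p = 0.00028). Both are imprinted genes, and on the list of imprinted and fetal growth genes 4 of 22 members rose and 3 fell (3 and 0 without those samples). Ereg, an EGF receptor ligand, had a log2 fold change of 1.94 at low levels, 0.436, 1.04 and 1.19 in sham and 1.19, 3.42 and 6.85 in AVF. The PDGF receptor Pdgfra did not pass (log2 fold change 0.04, standard error 0.16).

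**Figure D2:**
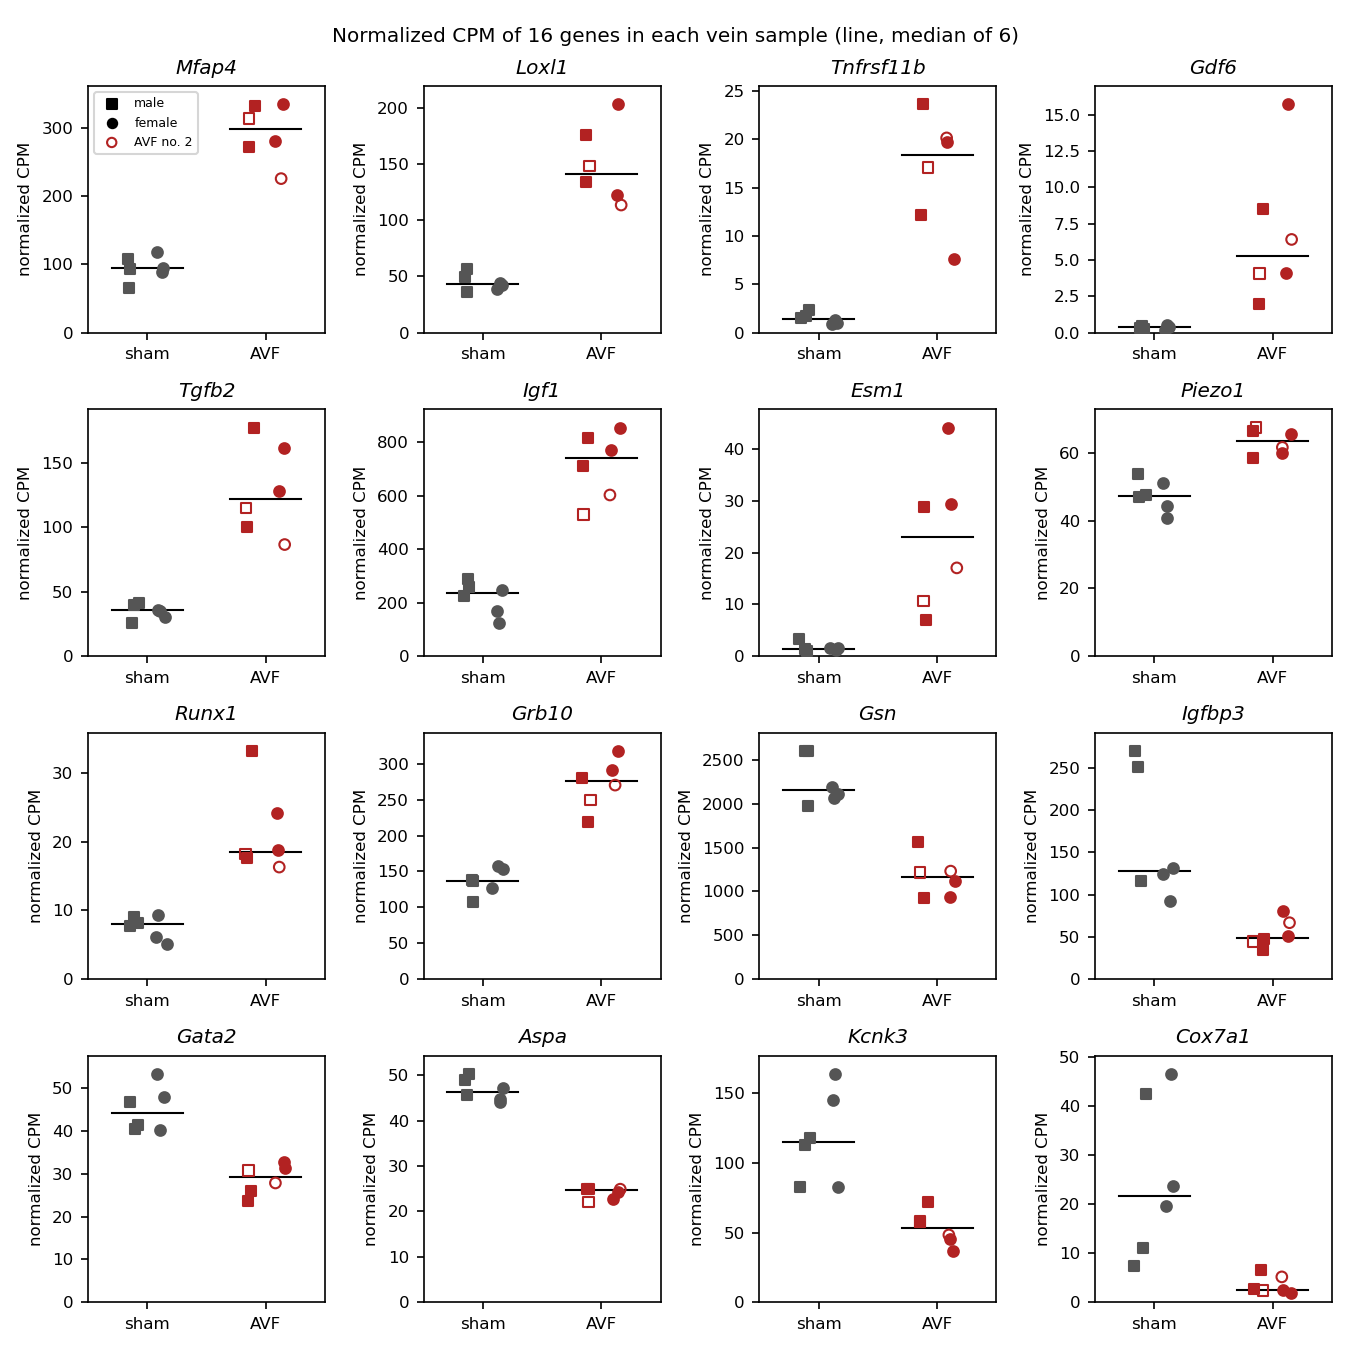
Normalized CPM (linear y axis from 0) of 16 genes in each of the 6 sham and 6 AVF samples; squares are males, circles females, open symbols AVF male 2 and AVF female 2, and lines the median of 6. The 16 genes were picked for display, and the groups do not overlap in any of them. Over all DEG, 536 higher and 223 lower, 333 had no overlap. Aspa is at 44 to 50.2 in sham and 22.1 to 25 in AVF, while Cox7a1 spreads from 7.45 to 46.6 in sham.

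Angiogenic genes changed in a few members: 4 of 20 rose and 2 fell. Esm1, an endothelial proteoglycan induced in tip cells of sprouting vessels, was at 1.04, 1.38 and 3.3 in sham and 7.04, 23 and 44.3 in AVF (log2 fold change 3.81, standard error 0.47, adjusted p = 0.00043). Placental growth factor (Pgf) and Vegfd, ligands of VEGF receptors, had log2 fold changes of 1.18 and 1.05. Vegfb and Angpt2 fell, Angpt2 from 49.8, 78 and 89.4 to 44.7, 51.5 and 57.7. In the general endothelial list, of 41 members, 1 rose and 2 fell, the median was 0.01, and for 35 members the 95% interval of the change lay within 2-fold. Vwf was at 524, 747 and 890 in sham and 486, 771 and 1041 in AVF, and Pecam1 at 590, 683 and 1091 and 570, 660 and 722. The exceptions were Gja4, a connexin of arterial endothelium (log2 fold change 1.02, adjusted p = 0.0082), and on the lower side Mmrn2 (-0.56) and Ackr1, the chemokine-binding receptor of venular endothelium (-0.59, standard error 0.14, adjusted p = 0.021). Of the 8 lymphatic endothelial genes, 3 rose: Flt4, Pdpn and Sema3d, and Flt4 did not pass without the 2 samples with hepatocyte markers (adjusted p = 0.075).

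In WNT signalling, 11 of 37 members rose and 1 fell (9 and 0 without the 2 samples with hepatocyte markers). They were receptors and ligands (Fzd6, log2 fold change 0.62; Wnt2, 1.75) as well as secreted antagonists (Sfrp1, 1.29; Frzb, 1.79), and the member that fell, Sfrp5 (-0.83), is an antagonist too. Notch and ephrin genes moved in 2 of 29 cases, both upward (6.9%, against 8.63% of all tested genes), and in 1 without those samples. Heyl, a Notch target of smooth muscle, was at 24, 33.6 and 42.3 in sham and 57.1, 75.2 and 91.5 in AVF (log2 fold change 1.16, standard error 0.16, adjusted p = 0.0012), and Jag1, a Notch ligand, had 0.40 (adjusted p = 0.096 without those samples). Among YAP and TEAD targets, genes switched on by stretch and stiffness, 7 of 21 rose and 1 fell. Ccn2 was at 77.2, 175 and 241 in sham and 249, 453 and 1033 in AVF (log2 fold change 1.80, standard error 0.36, adjusted p = 0.0081), and Ajuba, a scaffold of cell junctions, at 5.4, 6.46 and 7.28 and 8.94, 11 and 12.3. The member that fell was Igfbp3. Immediate early genes, which answer within minutes to hours, moved in 1 case up (Maff) and 1 down (Nr4a2) of 27, at 7 days, and Maff did not pass without those samples (adjusted p = 0.11).

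The mechanically gated cation channels Piezo1 and Piezo2 both rose. Piezo1, the flow sensor of endothelium, was at 40.8, 47.3 and 54 in sham and 58.5, 63.7 and 67.6 in AVF, a small change without overlap (log2 fold change 0.42, standard error 0.08, adjusted p = 0.0051). Piezo2, better known from sensory nerve endings, was at 6.01, 9.87 and 14.4 in sham and 26.8, 35.5 and 45.2 in AVF (log2 fold change 1.80, standard error 0.20, adjusted p = 0.00027). Of the 64 ion channel genes, 5 rose and 11 fell (4 and 6 without the 2 samples with hepatocyte markers), and Trpc6, a receptor-operated calcium channel, and Cacna1g, a T-type calcium channel, were among those that rose. Lower values were found for potassium channels that hold the resting potential: Kcnk3 was at 82.7, 115 and 163 in sham and 36.8, 53 and 72.1 in AVF (log2 fold change -1.14, standard error 0.20, adjusted p = 0.0034), and Kcnj12 had a log2 fold change of -1.25. Kcnk3 is also expressed in brown fat, whose markers were lower in AVF (median 86.3 normalized CPM against 511), and their part in it was not tested. Itpr1, the calcium release channel of the ER, and the chloride channel regulator Clca3a1 fell by 0.49 and 0.85 on the log2 scale.

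Contractile genes of smooth muscle changed in few members. Of 32 members, 2 rose and 2 fell (2 and 1 without the 2 samples with hepatocyte markers), the median log2 fold change was 0.04, and 25 members had a 95% interval within 2-fold. Acta2 was at 923, 1223 and 1718 in sham and 878, 1421 and 2069 in AVF, and Myh11, the myosin heavy chain of mature smooth muscle, at 961, 1184 and 1785 and 565, 1145 and 1305 (log2 fold change -0.28, standard error 0.21). Caldesmon (Cald1) and the gamma actin Actg2 rose by log2 fold changes of 0.66 and 0.84, and phospholamban (Pln), the brake of the calcium pump, fell from 6.57, 10.4 and 36 to 2.25, 4.01 and 5.78. The Pln value of 36 was in sham female 1, where the cardiac markers summed to 452, and the next sham value was 11.9. The part of cardiac tissue in it was not tested. Pericyte genes rose in 2 of 11 cases, Rgs5 (from 448, 811 and 1122 to 1096, 1879 and 2862, with the lowest AVF value inside the sham range) and Pdgfrb (log2 fold change 0.56).

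The myofibroblast and fibroblast activation list rose in 14 of 33 members and fell in 0, and the counts were the same without the 2 samples with hepatocyte markers. Runx1, a transcription factor found in activated fibroblasts and in blood cells, was at 5.17, 7.95 and 9.31 in sham and 16.3, 18.5 and 33.2 in AVF (log2 fold change 1.49, standard error 0.20, adjusted p = 0.00079). The list of resting fibroblast genes split, with 6 of 27 up and 4 down (5 and 2 without those samples). Pi16, a marker of adventitial fibroblasts, rose (log2 fold change 0.89), and Gsn, gelsolin, which cuts actin filaments, was lower in every AVF sample, 924, 1170 and 1564 against 1974, 2152 and 2604 in sham (log2 fold change -0.95, standard error 0.14, adjusted p = 0.0014). Clec3b, Abca8a and Gpx3 fell by 0.63, 0.48 and 0.69 on the log2 scale, and Clec3b and Gpx3 did not pass without those samples (adjusted p = 0.052 and 0.084). Mesothelial genes, which coat the abdominal organs, had a median log2 fold change of 1.67 but 0 of 14 members passed: their keratins and mesothelin varied over samples, the 2 markers Msln and Upk3b summing to 0.189 to 12.8 in sham and 1.73 to 21 in AVF. By edgeR 5 of the 14 had an unadjusted p under 0.05, and DESeq2 called 2 higher.

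Cytoskeletal genes rose in 20 of 61 cases and fell in 5 (14 and 2 without the 2 samples with hepatocyte markers). Tpm4, a tropomyosin of non-muscle actin cables, was at 282, 322 and 369 in sham and 486, 599 and 688 in AVF (log2 fold change 0.87, standard error 0.10, adjusted p = 0.00036). Diaph3 and Anln, which act in the contractile ring of dividing cells, had log2 fold changes of 1.90 and 1.26. Tubulins divided by isotype, with Tuba1c higher (0.68) and Tuba4a and Tuba8 lower (-1.20 and -1.83). Mapt, the tau protein of axons, fell together with neuronal genes (-1.27, adjusted p = 0.034, and 0.097 without the 2 samples with hepatocyte markers).

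Genes of protein folding and export rose by small and even steps. In the list of ER translocation, glycosylation and COPII transport, 25 of 65 members rose and 0 fell, the median log2 fold change was 0.24, and 64 members had an interval within 2-fold. Without the 2 samples with hepatocyte markers 13 rose. Kdelr2, the receptor that returns chaperones to the ER, was at 44.1, 50.9 and 63 in sham and 74.1, 81.8 and 99.2 in AVF (log2 fold change 0.67, standard error 0.10, adjusted p = 0.0014), and the cargo receptor Lman1 at 100, 103 and 115 and 132, 136 and 148. Sec61a1, the pore of the ER membrane, and Ssr2, a subunit beside it, had log2 fold changes of 0.42 and 0.49. Of the ER chaperones and unfolded protein response genes, 14 of 41 rose and 1 fell (6 and 1 without those samples). The 4 risers with the lowest p were protein disulphide isomerases (P4hb, which is also a subunit of the collagen prolyl hydroxylase, Pdia4, Pdia6 and Txndc5, log2 fold changes 0.46 to 0.68), while the master chaperone Hspa5 did not pass (0.35, adjusted p = 0.074) and Trib3, a target of the ER stress factor CHOP, fell (-1.10, standard error 0.25). Serpinh1, the collagen chaperone HSP47, was at 357, 415 and 501 in sham and 584, 715 and 753 in AVF (log2 fold change 0.73, standard error 0.11, adjusted p = 0.0013).

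Amino acid supply changed in single steps. Pycr1, the last enzyme of proline synthesis in mitochondria, was at 1.1, 3.61 and 4.83 in sham and 5.29, 9.59 and 14.7 in AVF (log2 fold change 1.58, standard error 0.32, adjusted p = 0.0084). Aldh1l2, a mitochondrial enzyme of folate metabolism, had 0.77, and 6 of the 43 members of this list of ATF4-type genes rose and 1 fell, against 2 and 0 without the 2 samples with hepatocyte markers. Nucleotide synthesis rose at the steps that feed DNA replication, Rrm2 (1.47), Rrm1 (0.67), Tk1 (2.08) and Tyms (0.80). These were 4 of the 5 members that rose among 52 genes of ribosome biogenesis and nucleotide synthesis. That share, 9.62%, was near the 8.63% of all tested genes. In the translation machinery 0 of 83 cytosolic ribosomal protein genes passed in either direction, with a median of 0.11, and all 83 intervals lay within 2-fold (7 had an unadjusted p under 0.05 by edgeR, and DESeq2 called 2). Of 51 proteasome and heat shock genes 0 passed by edgeR (5 had an unadjusted p under 0.05, and DESeq2 called 2).

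Leukocyte genes rose mainly for macrophages. Of the 47 macrophage and monocyte genes, 21 rose and 0 fell (median log2 fold change 0.66), and without the 2 samples with hepatocyte markers 14 rose. The 3 macrophage markers checked in every sample summed to 93.4 to 173 normalized CPM in sham and 179 to 292 in AVF, without overlap. The sums of the whole list did overlap, at 4225 to 7488 in sham and 5154 to 8039 in AVF (medians 5792 and 5851). Of the members that did not pass, the one with the highest level is also on the white adipocyte list. The part of fat in these sums was not tested. In whole veins, more cells of a type and more RNA per cell cannot be told apart. The complement component C1qb, made by tissue macrophages, was at 41.9, 48.3 and 59.3 in sham and 70.6, 86.6 and 135 in AVF (log2 fold change 0.89, standard error 0.15, adjusted p = 0.0031), and lysozyme (Lyz2) and the integrin Itgam had log2 fold changes of 0.84 and 0.78. Vsig4, a complement receptor of resident macrophages, was at 0.157, 0.273 and 0.947 in sham and 0.647, 2.39 and 8.5 in AVF (log2 fold change 3.09, standard error 0.65). The part of the liver RNA of AVF male 2 and AVF female 2 in Vsig4 was not tested. Arginase (Arg1), also an enzyme of hepatocytes, rose with all samples (3.60) and had 0.61 without the 2 samples with hepatocyte markers (adjusted p = 0.38). The chemokines Ccl8 and Ccl9 rose (1.54 and 1.10), and Ccl11, the eosinophil attractant eotaxin, fell from 48, 61.4 and 70.6 to 26.2, 34.7 and 47.6. Over the chemokine list 7 of 40 rose and 2 fell. Antigen presentation genes of dendritic cells rose in 8 of 23 cases with all samples and in 2 without the 2 with hepatocyte markers, and Cd40 (log2 fold change 1.10) and Cd86 (0.56) were past the threshold in both.

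Other leukocytes gave little. Of the T and NK cell genes 0 of 28 rose by edgeR (4 had an unadjusted p under 0.05 in either direction, and DESeq2 called 0 higher), while Gata3 fell (-1.07) and did not pass without the 2 samples with hepatocyte markers. Cd3e was at 0.594 to 1.27 normalized CPM in sham and 0.317 to 1.55 in AVF. Igha, the heavy chain of IgA, rose from 0, 0.0239 and 0.254 to 0.317, 1.63 and 2.98 and was the 1 member of 18 B and plasma cell genes to do so. Of the neutrophil genes, S100a8 and S100a9 were higher in some sham veins, S100a9 at 3.44, 15.5 and 46.1 in sham and 6.3, 11.5 and 18.5 in AVF, and did not pass. Gata2, a factor of mast cells and endothelium, fell from 40, 44.1 and 53.2 to 23.6, 29.3 and 32.6 (log2 fold change -0.65, standard error 0.10, adjusted p = 0.002), yet the mast cell proteases Cpa3 and Mcpt4 had log2 fold changes of 0.30 and 0.01. Interferon-induced genes rose in 0 of 51 cases by edgeR and fell in 2 (Gbp5 and Ifi27l2b, of which Gbp5 did not pass without the 2 samples with hepatocyte markers), with a median of 0.09, 15 at an unadjusted p under 0.05, and 3 called higher and 4 lower by DESeq2. Among cytokines and receptors 6 of 35 rose, led by Tnfrsf11b, osteoprotegerin, the decoy receptor of RANKL: it was at 0.921, 1.44 and 2.39 in sham and 7.66, 18.4 and 23.6 in AVF (log2 fold change 3.49, standard error 0.30, adjusted p = 6.6e-05). Il1r1, the interleukin-1 receptor, had a log2 fold change of 0.64, and the shared receptor chain Il6st one of -0.44 that did not pass (adjusted p = 0.061).

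Genes that control clotting at the vessel wall rose in 12 of 29 cases and fell in 2 (6 and 1 without the 2 samples with hepatocyte markers; Serpinc1 and Proc, antithrombin and protein C, are made by liver and had 6.64 and 7.16). Tfpi2, an inhibitor of plasmin and matrix proteases, rose (1.42), as did Entpd1, the ectonucleotidase that clears ATP and ADP from blood (0.68), and F8, coagulation factor VIII of endothelium, fell from 23.4, 33.3 and 44 to 11.8, 16.1 and 19.6. Platelet genes rose in 2 of 19 cases, Thbs1 and Rab27b, a share of 10.5% near the 8.63% of all tested genes. A negative log2 fold change was found for 15 of the 19. Pf4 and Ppbp, both on this list, did not pass (log2 fold changes -0.40 and -1.35). The highest sham value of Ppbp, 114 in sham male 1, stood apart from the next, 35.7. Complement genes rose in 16 of 38 cases with all samples and in 10 without AVF male 2 and AVF female 2, and serpins and cystatins in 17 of 39 and in 4. Hemoglobin transcripts were high in 1 sample, AVF female 3, where Hbb-bs was at 8386 normalized CPM against 1881 to 2953 in sham, and 0 of 11 erythroid genes passed (0 with an unadjusted p under 0.05 by edgeR, and 0 called by DESeq2).

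**Figure D3:**
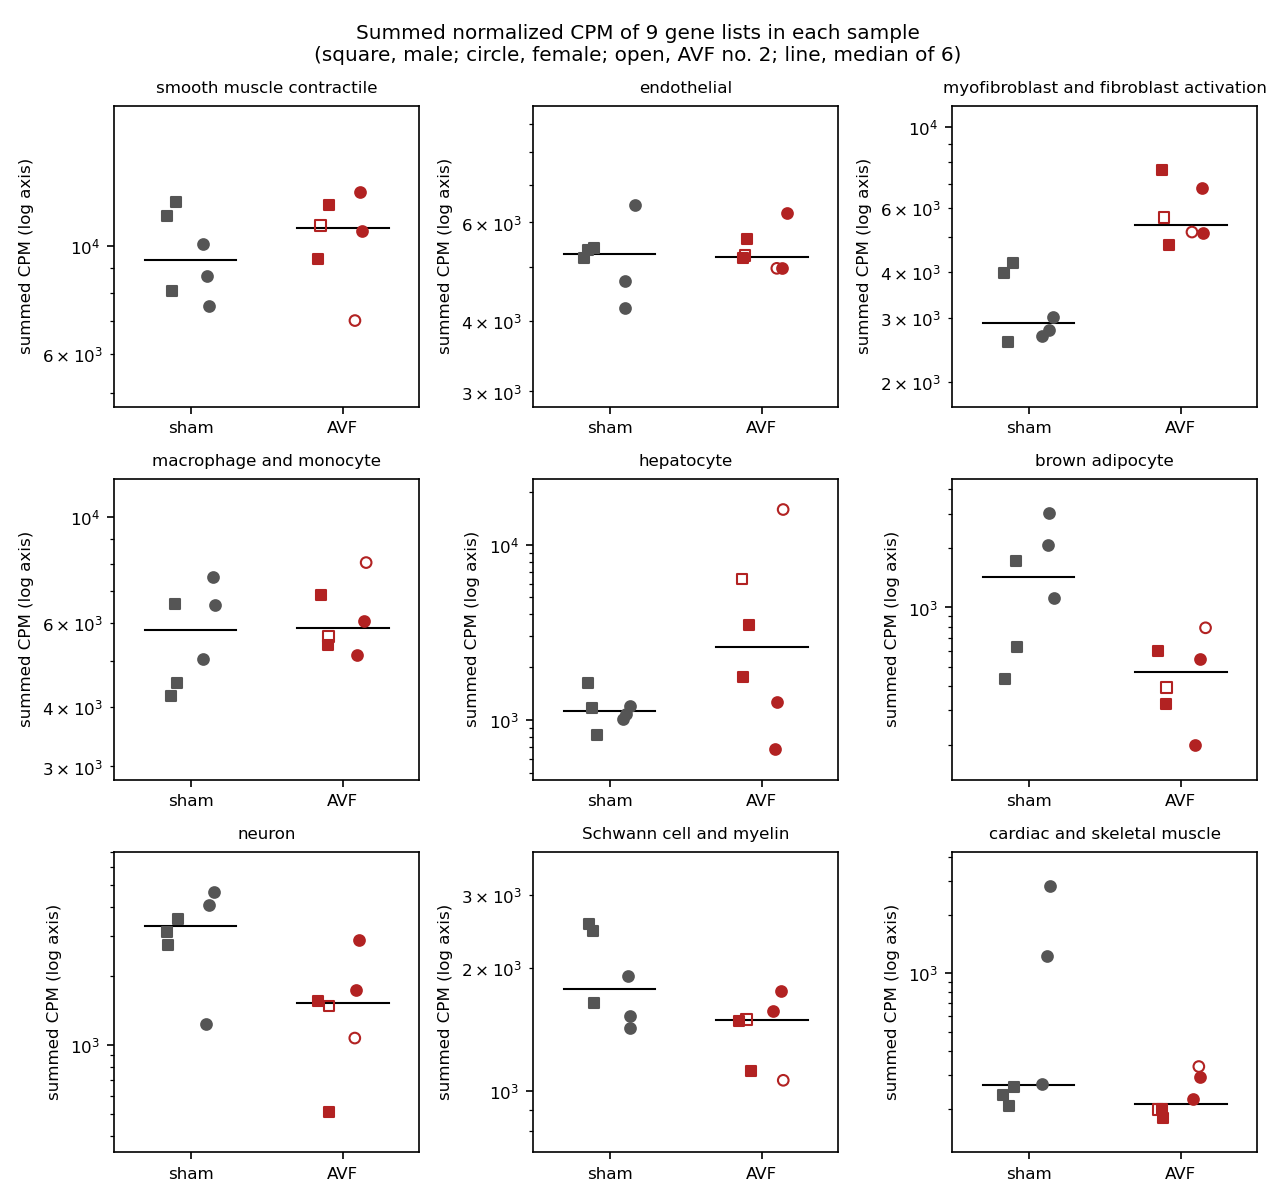
Summed normalized CPM (log y axis) of the tested members of 9 lists in each sample; squares are males, circles females, open symbols AVF male 2 and AVF female 2, lines medians of 6. Hepatocyte sums are high in the open symbols, muscle sums in 2 sham females (1227 and 2834), and the brown adipocyte, neuron and macrophage sums overlap between the groups. The macrophage list shares a member of high level with the white adipocyte list.

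Hepatocyte genes accounted for the largest fold changes of the comparison and belonged to 2 samples. 26 of 28 members rose with all 6 AVF samples, with a median log2 fold change of 9.02, and 1 (Hp) rose without AVF male 2 and AVF female 2, where the median was 0.68. Outside that list, the 10 DEG with the largest rise were also genes of liver (among them Ces1c, Bhmt, Apob, Mug1, Hnf4a, Cyp2c70, Cyp3a25, Rdh7 and Nat8f2), with an AVF median of 0 to 0.391 normalized CPM. Haptoglobin (Hp), also made by fat and neutrophils, was at 67.2, 113 and 212 in sham and 142, 353 and 740 in AVF.

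Among lower genes, nerve and fat stood out. Of 36 neuronal genes, 35 had a negative log2 fold change and 4 passed, with a median of -1.07, and 1 passed without the 2 samples with hepatocyte markers. An unadjusted p under 0.05 was found for 28 of them, and DESeq2 called 25 lower. Ret, the receptor of GDNF-type neurotrophic factors, was at 59.6, 68.1 and 107 in sham and 27.2, 31.1 and 64.7 in AVF (log2 fold change -1.06, standard error 0.22, adjusted p = 0.011). Slc6a2, the noradrenaline transporter of sympathetic nerves, was at 192, 508 and 893 in sham and 93.1, 235 and 520 in AVF, ranges that overlapped widely, and did not pass (adjusted p = 0.08). Summed over the list, sham female 1 had the lowest sham value, 1235, and AVF female 1 the highest AVF value, 2875. Schwann cell and myelin genes had 3 of 26 members down (Ngfr, L1cam and Cdh19) and 0 without those 2 samples, and Pmp22, which fibroblasts also make, had a log2 fold change of 0.02.

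Brown fat genes fell in 11 of 19 cases and rose in 0, with a median of -1.49, and 9 fell without the 2 samples with hepatocyte markers. Cpt1b, Cidea and Prdm16 were among them. Prdm16, a transcription factor that sets brown fat identity and is also active in arterial endothelium, was at 17.1, 19.1 and 20.7 in sham and 8.31, 10.4 and 15.5 in AVF (log2 fold change -0.73, standard error 0.15, adjusted p = 0.0082). Cox7a1, a cytochrome oxidase subunit of brown fat and striated muscle, was at 7.45, 21.7 and 46.6 in sham and 1.88, 2.6 and 6.64 in AVF (log2 fold change -2.82, standard error 0.48, adjusted p = 0.0033). The uncoupling protein Ucp1 itself varied from 23 to 1089 in sham and from 1.69 to 121 in AVF, and its log2 fold change was -2.83 with a standard error of 1.01 (adjusted p = 0.079). White fat genes moved less: 2 of 25 fell (Cidea and the glucose transporter Slc2a4), 0 without the 2 samples with hepatocyte markers, and Adipoq, adiponectin, was at 271, 388 and 532 in sham and 265, 392 and 574 in AVF. Lipid and cholesterol synthesis genes had 33 of 35 log2 fold changes below 0 but only Fdft1 and Hmgcs1 passed, and both were enzymes of the cholesterol pathway; neither passed without those samples. The list summed to 28118 to 37858 normalized CPM in the 3 sham veins with the most brown fat marker RNA (666 to 1300), to 7816 to 11193 in the other 3 and to 6144 to 21699 in the AVF, and the part of brown fat in it was not tested. Muscle genes had a median of -3.15 with 3 of 27 passing (Cox7a1, Cox8b and Myl1). Their sum was 1227 and 2834 normalized CPM in sham female 1 and sham female 3 and 179 to 331 in the other 10 samples, and without sham female 3 the median of the list turned to 0.52. The 10 DEG with the largest fall were Tcap, Lncbate10, Cox7a1, Fabp3, Otop1, Gm10032, Cpt1b, Myo5c, Myl1 and Cidea, of which Tcap, Lncbate10, Otop1, Gm10032, Myl1 and Cidea did not pass without the 2 samples with hepatocyte markers.

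Glucose handling and hypoxia genes fell in 17 of 44 cases and rose in 1, against 7 and 1 without the 2 samples with hepatocyte markers. Brown fat markers moved with them: the list summed to 6263 to 8437 normalized CPM in the 4 sham veins where those markers summed to 356 to 1300, to 4256 and 4362 in sham male 2 and sham male 3, where they summed to 66 and 147, and to 3839 to 5041 in the AVF, and their part in it was not tested. The gene that rose was Hif1a, the oxygen-regulated transcription factor, from 110, 116 and 134 to 158, 174 and 216 (log2 fold change 0.61, standard error 0.09, adjusted p = 0.0013). Its relative Epas1 did not pass (log2 fold change -0.24, adjusted p = 0.11). Gpi1, Pkm and Ldhb, enzymes of glycolysis and lactate turnover, fell (-0.65, -0.70 and -1.37; Pkm had an adjusted p of 0.058 without AVF male 2 and AVF female 2), Ldhb from 32.1, 70.8 and 94.9 to 21.4, 22.9 and 32.7, and Slc2a3, a glucose transporter of nerve and leukocytes, by 0.89 on the log2 scale. The highest-expressed DEG on the lower side included Gm29216, Hadhb, Pdk4, Cycs, Sucla2, Idh3a, Pfkfb3, Gpd2 and Acadvl, and of these 9 Gm29216, Pdk4 and Sucla2 also passed without those 2 AVF samples. Gm29216 is a predicted gene whose reads may be shared with another copy and is uncertain. Pdk4, the kinase that shuts pyruvate out of the mitochondrion, was at 212, 329 and 1046 in sham and 84.7, 137 and 204 in AVF.

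Some falls showed little spread in the AVF or in both groups. Aspa, aspartoacylase, which splits acetylaspartate, had the second lowest p of all genes and was named after its values were seen, since it lay just under 2-fold. It was at 44, 46.4 and 50.2 in sham and 22.1, 24.6 and 25 in AVF (log2 fold change -0.96, standard error 0.07, adjusted p = 1.6e-05), with no sample near the other group. The calcineurin B homologue Chp2 was at 25.1, 36.4 and 47.4 in sham and 16.8, 17.8 and 19.2 in AVF (log2 fold change -1.02). Gabarapl1, an autophagosome protein, fell from 200, 215 and 240 to 119, 148 and 157 (log2 fold change -0.61, standard error 0.08, adjusted p = 0.00069), against the direction of the lysosomal list, in which 16 of 50 rose and 3 fell (10 and 1 without the 2 samples with hepatocyte markers) and the autophagy gene Wipi1 rose (0.67). Further low-p DEG on the lower side included Ybx2, Tmeff1, Fbxo44, Myrip, Tuba4a, the metalloprotease Tll1, the formin Fhod3, Mamdc2 and Hsf4. The log2 fold changes of these named genes lay between -1.65 and -1.04.

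Receptors for hormones fell more often than they rose, 9 against 2 of 58 (5 and 1 without the 2 samples with hepatocyte markers). Rxrg, a retinoid X receptor, was at 5.92, 7.67 and 9.46 in sham and 3.07, 3.45 and 4.97 in AVF (log2 fold change -1.03, standard error 0.17, adjusted p = 0.0024), and the adrenergic receptor Adra2c had -1.09. Calcrl, the receptor of adrenomedullin and CGRP on endothelium, rose from 212, 306 and 441 to 386, 600 and 767 (log2 fold change 0.95, standard error 0.18, adjusted p = 0.0064), and the groups overlapped by 1 AVF sample. The glucocorticoid receptor Nr3c1 did not pass (log2 fold change -0.12, standard error 0.14). Of the developmental transcription factors 10 of 68 rose and 4 fell (6 and 2 without those samples), among them the forkhead genes Foxs1 (1.53), of perivascular cells, and Foxc2 (0.67), of lymphatic and venous valves, while the venous identity factor Nr2f2 had a log2 fold change of 0.00 with a 95% interval from -0.30 to 0.31. Clock genes had 0 of 24 up by edgeR and 2 down (Bhlhe40 among them; 0 without those samples), with 9 at an unadjusted p under 0.05, and DESeq2 called 2 higher and 3 lower.

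Oxidant handling was mixed, with 11 of 53 members up and 4 down (8 and 2 without the 2 samples with hepatocyte markers). Nox4, the NADPH oxidase of vascular cells, was at 25.2, 42.4 and 50.8 in sham and 61.9, 78.2 and 91.8 in AVF (log2 fold change 0.95, standard error 0.16, adjusted p = 0.0026). Ncf1, the p47 subunit of the phagocyte oxidase, and Hmox1, heme oxygenase 1, had log2 fold changes of 0.81 and 0.93, and Gpx3 and Srxn1, which detoxify peroxides, fell but did not pass without those samples (adjusted p = 0.084 and 0.058). Of the p53 and apoptosis genes 7 of 32 rose and 1 fell, against 3 and 1 without those samples. The risers included Bax (0.59), a pore protein of the mitochondrion, and Bcl2l11 (0.62), while the cell cycle inhibitor Cdkn1c fell (-0.49, adjusted p = 0.07 without those samples). Axon guidance genes moved in 3 cases up (Ntn4, Sema3d and Unc5b) and 2 down (Sema3e and Sema3g) of 41, against 5 and 0 without those samples. With all samples, their shares of 7.32% and 4.88% were near those of all tested genes (8.63% and 5.13%).

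The 15 low-p DEG on the higher side included Pclaf, Fam83d and Kif4, which act in DNA replication or mitosis. A DNA repair gene among the 15 is not shown. The promoters of Pclaf, Fam83d and Kif4 were picked for display and were present in the RefSeq table of GRCm38.p6. This table gave a promoter of 300 bases around the start for 11532 of the 15912 tested genes. The 3 sequences are shown since genes of division often carry inverted CCAAT boxes (bound by NF-Y) beside a cell cycle genes homology region (CHR, TTTGAA) or an E2F site (TTTCCCGC). Capitals mark these motifs on either strand, 5′ to 3′ along the gene.
Pclaf, chr9:65890073-65890372, plus strand: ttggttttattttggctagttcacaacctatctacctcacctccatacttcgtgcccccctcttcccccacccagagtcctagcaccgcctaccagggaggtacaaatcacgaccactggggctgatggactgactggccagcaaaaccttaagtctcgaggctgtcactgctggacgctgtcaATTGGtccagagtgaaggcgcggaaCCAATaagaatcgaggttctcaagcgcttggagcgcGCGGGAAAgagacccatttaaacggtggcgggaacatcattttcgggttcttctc
Fam83d, chr2:158767849-158768148, plus strand: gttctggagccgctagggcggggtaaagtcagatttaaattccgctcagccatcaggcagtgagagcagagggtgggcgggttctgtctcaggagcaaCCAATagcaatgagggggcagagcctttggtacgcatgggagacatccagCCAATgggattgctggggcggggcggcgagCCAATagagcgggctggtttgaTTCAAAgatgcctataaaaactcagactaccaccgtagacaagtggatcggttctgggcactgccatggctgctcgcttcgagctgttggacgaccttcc
Kif4, chrX:100625815-100626114, plus strand: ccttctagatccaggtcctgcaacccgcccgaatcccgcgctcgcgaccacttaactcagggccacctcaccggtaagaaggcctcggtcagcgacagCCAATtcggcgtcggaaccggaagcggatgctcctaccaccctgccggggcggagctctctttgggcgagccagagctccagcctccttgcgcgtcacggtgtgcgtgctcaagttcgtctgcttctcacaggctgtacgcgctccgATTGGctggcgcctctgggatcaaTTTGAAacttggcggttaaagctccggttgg
Fam83d carried 3 CCAAT boxes and 1 CHR, Kif4 carried 2 and 1, and Pclaf carried 2 CCAAT boxes and 1 E2F site. Fam83d was at 0.478, 0.646 and 0.888 normalized CPM in sham and 2.52, 3.15 and 4.74 in AVF, and Kif4, a chromosome-bound kinesin, at 1.57, 2.23 and 2.56 and 5.94, 8.86 and 13.3. On the 53 S and G2/M phase genes that rose and had a promoter, 54.7% held a CHR and 75.5% a CCAAT box, against 12.4% and 38.4% of all tested genes with a promoter. The 56 matrix list members that rose held them in 10.7% and 37.5%. TATA boxes (TATAAA) were found in 5.66% of the former, 14.3% of the matrix genes and 7.96% of all, and the TEAD site GGAATG in 11.3%, 14.3% and 12.2%. These are matches of letters in a window and were not tested.

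The female and male comparisons share no sample. In females 568 genes rose (3.57%) and 215 fell (1.35%), and in males 116 rose (0.729%) and 31 fell (0.195%), from 3 AVF and 3 sham mice in each and a spread estimated over all 4 groups. Leaving out 1 sample moved these counts widely: 117 rose in females without sham female 2 and 26 fell without AVF female 3, and 4 rose and 3 fell in males without sham male 2. Of the 783 genes called in females, 758 had the same sign in males and 120 were called there with it, which is 15.3% of the female and 81.6% of the male calls. Over all tested genes, 70.6% had the same sign in both sexes. The log2 fold changes of the sexes had a Pearson's r of 0.82 across the 15912 genes, which are not independent and include the liver genes of AVF male 2 and AVF female 2. The interaction of operation and sex passed in 0 genes (0%) by edgeR's quasi-likelihood test, with 813 genes at an unadjusted p under 0.05. The 5 genes with the lowest interaction p were Fam177a, Adamtsl2, Vgll3, Shroom2 and Arhgap20. Vgll3, a TEAD cofactor, was at 42.8, 70.5 and 89.6 in sham and 92.6, 118 and 167 in AVF, with log2 fold changes of 1.42 in females and 0.28 in males.

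**Figure D4:**
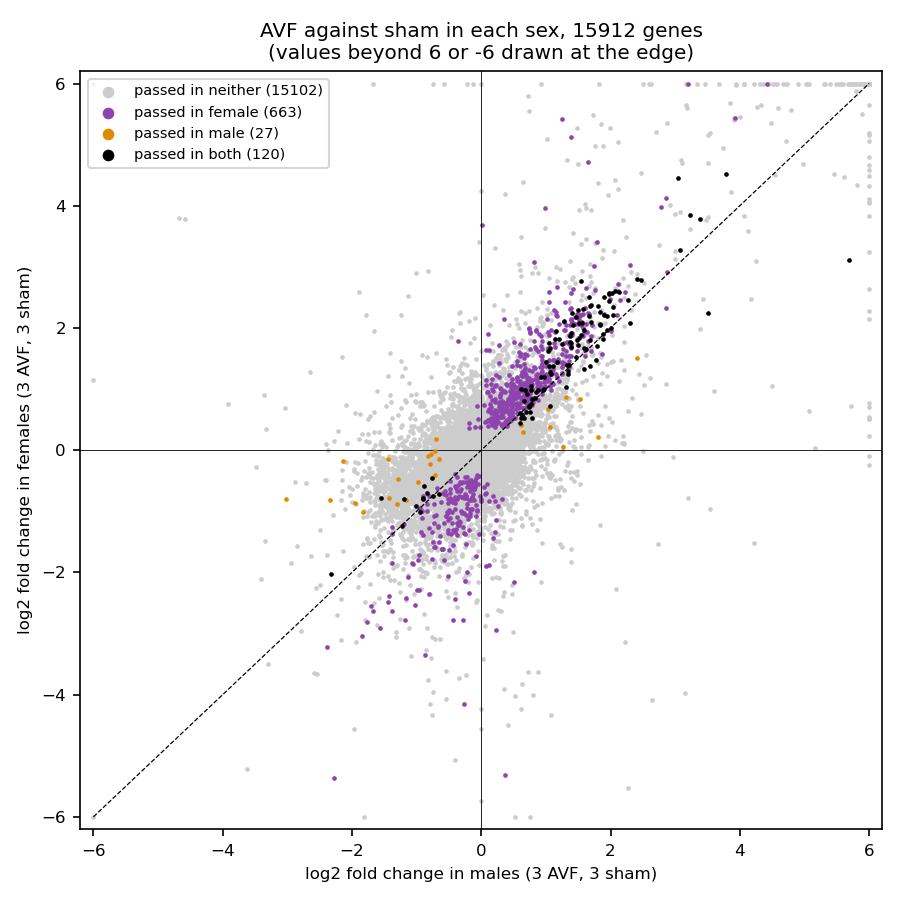
Log2 fold change of AVF against sham in females (y axis) and in males (x axis), 1 point per tested gene, coloured by the sex in which it passed; the dashed line marks equal change. Values beyond 6 or -6 are drawn at the edge, and most of the 120 genes passing in both sexes lie in the upper right.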

How the data were processed

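Stranded poly(A) libraries of 12 inferior venae cavae were sequenced, and the authors deposited 1 table of expected counts per gene. The submitters' processing notes name RSEM 1.3.3 and STAR 2.7.7a, with Trimmomatic 0.39 and the build GRCm39. RSEM divides reads that fit several genes by estimation, and 5.72% to 7.75% of the expected counts of a sample were not whole. They were rounded for the tests. Groups were taken from the labels, each sample being a mouse of its own. Totals of 15177854 to 22717370 per sample set the precision, and counting limits cover counting error only.

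The 15912 genes above 1 CPM in 2 or more samples were fitted with edgeR (v4.0.16) in R (v4.3.3) by the quasi-likelihood test after TMM normalization. P-values were adjusted by Benjamini-Hochberg over all tested genes, and 95% intervals came from the same fit. AVF and sham were compared over 12 samples, and within each sex in a model of 4 groups. The procedure was tested on simulated data. Alternatives were the exact test of edgeR, DESeq2 (v1.42.0), another normalization, 2 other filters, sex and replicate terms, and the omission of samples or of ribosomal RNA genes.

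The members and the 59 lists (1905 genes tested, from general knowledge and, for the S and G2/M phases, from Seurat v5.3.0) were chosen with earlier results of these data known. Genes were named by rule: the 15 DEG in each direction with the lowest p and no overlap of the groups, leaving out collagens, S and G2/M genes and predicted genes; the 10 with the largest change among genes with at least 5 CPM in the higher group, outside the hepatocyte list; the 10 with the highest level; in each list up to 4 genes in each direction with the lowest p and up to 3 of the highest level that did not pass; and the 5 with the lowest interaction p. Besides the cell type markers, Aspa, Adipoq, Timp1, Smad7, Vsig4, Arg1, Serpinc1 and Proc were named after their values were seen. A few genes under the rule are not reported here. Promoters came from RefSeq on GRCm38.p6, another build than that of the counts, 1 start per gene, and were searched for motifs on both strands.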

Additional observations from a re-analysis of the deposited data

Results flagged for a closer look

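Outlying samples were looked for in 492 groups of 6 values (each named gene, the total count and the ribosomal RNA share, in sham and in AVF). The highest or lowest sample lay far from the other 5 in 56 cases (11.4%). The cutoff gives about 1 in 20 for independent, normally distributed values. Linear CPM of genes named from these data, some near the counting limit, are not such values, so 11.4% was not set against it. Values are normalized CPM.

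AVF female 2 held 13 of the 56 cases. It was the highest AVF sample for the liver genes Apob (1213), Bhmt (505), Ces1c (294), Cyp2c70 (132), Serpinc1 (122), Arg1 (113), Hnf4a (101), Cyp3a25 (82.6) and Rdh7 (68.9). It was also highest for Myl1 (18.8), Trib3 (3.18) and Tcap (0.987) and lowest for Il6st (601). AVF female 3 was highest for the matrix and adhesion genes Lox (1975), Thbs1 (776) and Itga5 (93.5), for the dividing-cell genes Diaph3 (30), Tk1 (6.48) and Fam83d (4.74) and for the chemokine Ccl9 (198), and lowest for Nr4a2 (5.96). AVF female 1 was highest for its share of ribosomal RNA (46%), Entpd1 (246) and Ret (64.7). Fn1 (5178) and Clca3a1 (30.7) were highest in AVF male 3, and Mmp9 (12.2) in AVF male 1.

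Among the sham veins, female 1 was highest for Tgm2 (440), Aspn (246), Fabp3 (98.3), Pln (36) and Rrm2 (9.15) and lowest for Slc2a3 (23.9). Sham female 3 was highest for the muscle genes Myh4 (603), Myl1 (168) and Ckm (110) and for Plod2 (337), Nog (10.4) and Arg1 (5.28). Sham female 2 was highest for the mesothelial genes Upk3b (10.5) and Msln (2.33) and lowest for Rrm1 (22.9) and Bax (4.11). Sham male 1 was highest for Ppbp (114) and Clca3a1 (61) and lowest for Fhod3 (8), and sham male 3 was highest for Esm1 (3.3) and Igha (0.254). At most 3 counts lay behind the liver genes that stood apart in a sham sample: Mug1 (0.142), Ces1c and Cyp2c70 (0.0947 each) and Cyp3a25 (0.0473) in sham male 1, Nat8f2 (0.127) in sham male 3, Proc (0.0848) in sham female 2, Rdh7 (0.0485) in sham female 3 and Hnf4a (0.0478) in sham male 2.

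Shroom2, an actin-binding protein, moved in opposite directions in the sexes: all 3 AVF females were above and all 3 AVF males below the sham mice of their sex. The log2 fold changes were 0.51 and -0.53, a difference of 1.04 with an unadjusted p of 0.00073 that did not pass over all genes (adjusted p = 0.93 in edgeR, quasi-likelihood).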

How the results depend on the processing

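Of the 205 named genes that rose or fell, 165 passed the threshold without each sample in turn and 148 in every alternative, wherever the gene was still tested, and 0 changed sign. Without AVF male 2, without AVF female 2 and without both, 194 of the 205 were still tested. Of these 168, 189 and 156 passed. Genes not tested in those settings can still count among the 165 and the 148. All 205 passed by DESeq2 and 197 by the exact test. With all samples 1373 genes rose and 817 fell, and 536 DEG were higher and 223 lower. DESeq2 called 1432 lower genes and 408 lower DEG, the exact test 361 lower DEG, and no filter left 479 lower genes of 30404. A 1.5-fold threshold gave 905 higher and 529 lower DEG. Without AVF male 2 and AVF female 2, 911 genes rose, 319 fell and 111 DEG were lower. Leaving out 1 sample gave 915 (sham female 2) to 1599 genes that rose and 414 (AVF male 2) to 947 that fell, with 415 without sham female 2, 432 without sham female 3, 446 without AVF female 3, 468 without sham male 1 and 499 without AVF male 3. Higher DEG numbered 351 (sham female 2) to 608, and lower DEG 119 (sham female 2) to 415 (AVF female 1), with 128, 132 and 143 without sham female 3, AVF female 3 and AVF male 2. In females 117 to 742 genes rose and 26 to 634 fell, the highest counts both without AVF female 2, and in males 4 to 194 rose and 3 to 68 fell. Without both samples with hepatocyte markers 332 fell in females, and 56 rose and 18 fell in males. With each sex fitted alone, 29 rose and 6 fell in females and 47 fell in males. The interaction gave 0 genes with the other normalization, without the filter, with the replicate block and with samples left out. The median of the muscle list turned from -3.15 to 0.52 without sham female 3 and went down to -3.42 without sham male 2. The causes were not tested. Depth limits genes near 3 counts, 0.127 to 0.324 normalized CPM.

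The data did not show whether the mouse numbers pair the samples. Correlations of same-numbered samples ran from -0.144 to 0.175. AVF male 1, AVF male 3 and AVF female 3 but not the other 3 AVF samples correlated best with the sham sample of their number. Correlations of deviations from means of 3 mice cannot exclude a pairing. With the number as a replicate block, 1306 genes rose and 674 fell, and 478 fell in females, against 215 without it, and the muscle list had a median of -0.62.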
